A study of Mus musculus with 12 samples.

Results

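Transcripts of 10 genes of polyamine metabolism were measured in mpkCCD cells, a mouse line derived from principal cells of the renal collecting duct. The genes were taken by symbol, and all 10 were found among the 52015 genes of the table and had at least 0.5 FPKM (fragments per kilobase of gene length, scaled to the mapped fragments of the library) in every group. The 4 groups crossed genotype with the osmolality of the medium. Scr_300 and Scr_600 were cells that had received a non-targeting guide, with 2 libraries each, kept at 300 and 600 mosmol/kg. Nfat5-KO_300 and Nfat5-KO_600 were CRISPR/Cas9 knockout cells of Nfat5, the transcription factor of the hypertonic response, with 4 libraries each, 2 from each of 2 clones. Medium of 600 mosmol/kg contained an additional 100 mM NaCl and 100 mM urea, and all cells were cultured for 5 days. The table holds 1 pooled value per group, so no SD, n or p can be attached to any value, and clones cannot be told apart. Differences are therefore given as sizes of pooled values, with the share of all genes that differed as much.

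The polyamines putrescine, spermidine and spermine are small positively charged molecules that bind nucleic acids and are needed for growth and translation. Ornithine decarboxylase (Odc1) makes putrescine from ornithine, and S-adenosylmethionine decarboxylase (Amd1) supplies the aminopropyl groups with which spermidine synthase (Srm) and spermine synthase (Sms) lengthen the chain. Antizymes (Oaz1, Oaz2) bind ornithine decarboxylase and bring it to the proteasome, and antizyme inhibitor 1 (Azin1), an inactive relative of the enzyme, binds the antizymes. Spermidine/spermine acetyltransferase (Sat1), the acetylpolyamine oxidase (Paox) and spermine oxidase (Smox) run the chain backwards. Much of the control of these genes is known to act on translation and protein stability, which the table does not measure.

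Both antizyme messages carry the frameshift site at which ribosomes change reading frame when polyamines are plentiful. It is shown here because the sites of both antizymes can be compared. The site lay at chr10:80828281-80828310 (+) in Oaz1 and at chr9:65686258-65686287 (+) in Oaz2 (GRCm38, GENCODE M21), and 28 of 30 bases were identical. The capitals mark the letters TCCTGAT, in which TGA is the stop codon of the first frame.
Oaz1: ctcggtggtgcTCCTGATgtccctcaccca
Oaz2: ctctgtggtgcTCCTGATgcccctcaccca

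The Amd1 transcript begins with a short upstream reading frame through which polyamines are known to lower its translation. It lay at chr10:40302155-40302175 (−), had 6 codons before its stop, and ended 296 bases before the start codon of the enzyme. The capitals mark its start and stop codons.
Amd1 upstream frame: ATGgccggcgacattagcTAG

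Promoters are shown for Odc1 and Sms, the 2 members that were at least 1.5-fold lower in the values as deposited at 600 mosmol/kg in both genotypes. RefSeq (GRCm38.p6) windows were at hand for 8 of the 10 members, with 2 start sites for Sms and for Paox. The Paox windows (chr7:140125407-140125656 and chr7:140125435-140125684) overlap over most of their length. In the 250 bases before each start, the GC content had a median of 62.8% over the 10 windows of members and 52.4% over all 32851 windows. The capitals mark matches on either strand to GGGCGG, the core of Sp-family sites (written CCGCCC on the other strand), and to CACGTG, the E-box of MYC and related factors.
Odc1, chr12:17544623-17544872 (+): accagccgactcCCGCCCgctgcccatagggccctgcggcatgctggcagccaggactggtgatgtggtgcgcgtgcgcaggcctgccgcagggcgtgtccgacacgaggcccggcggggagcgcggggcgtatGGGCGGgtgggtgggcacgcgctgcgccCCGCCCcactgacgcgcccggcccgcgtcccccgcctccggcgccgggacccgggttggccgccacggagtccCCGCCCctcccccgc
Sms, chrX:157492288-157492537 (−): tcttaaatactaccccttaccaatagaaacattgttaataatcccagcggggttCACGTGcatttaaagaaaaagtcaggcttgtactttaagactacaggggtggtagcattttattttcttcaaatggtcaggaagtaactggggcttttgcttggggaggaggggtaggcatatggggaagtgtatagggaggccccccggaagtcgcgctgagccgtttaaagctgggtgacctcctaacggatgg
Sms, second start, chrX:157491369-157491618 (−): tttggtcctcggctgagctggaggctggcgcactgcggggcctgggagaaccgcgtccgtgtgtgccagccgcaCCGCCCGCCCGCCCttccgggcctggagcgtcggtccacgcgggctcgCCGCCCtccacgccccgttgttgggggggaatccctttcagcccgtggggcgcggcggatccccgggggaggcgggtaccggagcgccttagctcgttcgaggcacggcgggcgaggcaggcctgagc

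GGGCGG was found in 8 of the 10 windows and in 32.7% of all windows. The overlapping Paox windows share a match and are both counted. CACGTG was found in 1 of the 10, upstream of Sms, and in 6.02% of all windows. TGGAAA, the core of sites bound by NFAT proteins including Nfat5, was found in none of the 10 and in 18.6% of all windows, and TATAAA in none of the 10 and in 12.4%. In the second Sms window 3 of the 4 GGGCGG matches overlap each other, and no match to one motif overlaps a match to another.

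Oaz1 and Odc1 were the most abundant members (the plot of levels by group). The mean FPKM of Oaz1 was above that of 98.4% of the 13414 genes that reached 0.5 FPKM in any group, and that of Odc1 above 98.0%. Paox was the least abundant, above 30.9% of the genes. Odc1, Sms and Srm varied most, with the highest group 2.76, 2.31 and 2.14 times the lowest. Sat1 and Oaz2 varied least, with ratios of 1.13 and 1.15.

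**Figure D1:**
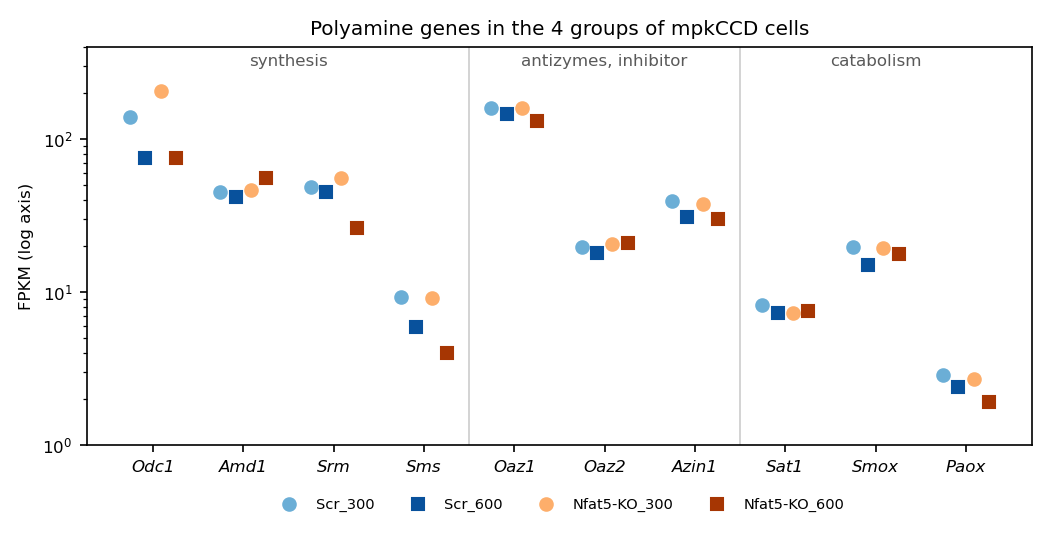
FPKM on a log axis of the 10 polyamine genes in the 4 groups, 1 pooled value per point with no error available, ordered by role. Odc1, Srm and Sms are spread over more than 2-fold, with Nfat5-KO_600 lowest for Srm and Sms, while the 4 points of Oaz2 and of Sat1 lie close together.

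Odc1, the first enzyme of the pathway (chr12:17544794-17551505, + strand), had 138.9 FPKM in Scr_300, 75.0 in Scr_600, 207.4 in Nfat5-KO_300 and 75.4 in Nfat5-KO_600. Both groups at 600 mosmol/kg were nearly equal, and both at 300 were higher, with the knockout highest. On the log2 scale of FPKM + 0.1, Scr_600 was at -0.89 against Scr_300, and Nfat5-KO_600 at -1.46 against Nfat5-KO_300. Of all genes compared, 3.64% had a lower ratio in Scr and 1.32% in Nfat5-KO. At 300 mosmol/kg the knockout was higher by a log2 ratio of 0.58, which is 1.49-fold and just under the 1.5-fold limit used for counting (0.59 and just over it with the groups scaled to equal FPKM sums), and 94.6% of genes had a lower ratio. At 600 mosmol/kg the ratio was 0.01.

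Amd1, the second decarboxylase (chr10:40287458-40302186, − strand), had 44.8 FPKM in Scr_300, 41.9 in Scr_600, 46.6 in Nfat5-KO_300 and 55.6 in Nfat5-KO_600. Among the 4 synthesis genes of the set it was the only one whose highest value was in Nfat5-KO_600. That group was at a log2 ratio of 0.41 against Scr_600 and of 0.25 against Nfat5-KO_300, and in no comparison did it reach 1.5-fold.

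Srm (chr4:148591503-148594993, + strand) had 48.5 FPKM in Scr_300, 45.1 in Scr_600, 56.0 in Nfat5-KO_300 and 26.2 in Nfat5-KO_600. Only Nfat5-KO_600 stood low. Its log2 ratio was -0.78 against Scr_600, where 5.76% of genes were lower, and -1.09 against Nfat5-KO_300, where 3.27% were lower. The log2 ratio of osmolality in Scr was -0.10, so that the response in Nfat5-KO minus that in Scr was -0.99, with 3.25% of genes lower in that difference. No test of the difference was possible.

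Sms (chrX:157443855-157492287, − strand) had 9.29 FPKM in Scr_300, 5.91 in Scr_600, 9.11 in Nfat5-KO_300 and 4.01 in Nfat5-KO_600. Both groups at 600 mosmol/kg were lower than both at 300, and Nfat5-KO_600 was lowest. The log2 ratio of osmolality was -0.64 in Scr and -1.16 in Nfat5-KO, where 2.61% of genes were lower. Between genotypes it was -0.03 at 300 and -0.55 at 600 mosmol/kg. The last value fell just short of the 1.5-fold limit of 0.58 and was not counted, and the ratio in Scr was just past it. The Scr ratio did not reach 1.5-fold with a pseudocount of 1 (-0.57) and with the groups scaled to equal FPKM sums (-0.52).

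The balance of neighbouring steps differed between groups, as the ratio of FPKM values of one gene over another. Odc1 over Oaz1 was 0.871 in Scr_300, 0.513 in Scr_600, 1.30 in Nfat5-KO_300 and 0.577 in Nfat5-KO_600, so that the enzyme's transcript exceeded that of its main antizyme only in Nfat5-KO_300. Amd1 over Srm was 0.923, 0.928, 0.832 and 2.12 in the same order. The last group stood apart, since Amd1 was highest and Srm lowest there. Srm over Sms lay between 5.22 and 7.64. That ratio leaves out the copies of Sms described below, so its level is uncertain.

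The antizymes and their inhibitor differed less. Oaz1 (chr10:80826656-80829290, + strand) had 159.5 FPKM in Scr_300, 146.1 in Scr_600, 159.5 in Nfat5-KO_300 and 130.7 in Nfat5-KO_600. The log2 ratios of Oaz1 lay between -0.29 and 0.00. Oaz2 (chr9:65668001-65690300, + strand), the less abundant antizyme, had 19.8, 18.1, 20.8 and 20.8 FPKM in that order, and its log2 ratios lay between -0.13 and 0.20. Azin1 (chr15:38487427-38519266, − strand) had 39.7, 31.0, 37.4 and 30.2 FPKM. Azin1 was lower at 600 mosmol/kg by similar amounts in both genotypes, with log2 ratios of -0.35 in Scr and -0.31 in Nfat5-KO. Its exons share 358 bases with Gm49077, an antisense gene with no value in the table, and the library kit as described does not keep the strand, so reads from both cannot be told apart there.

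The catabolic genes differed by less than 1.5-fold in every comparison. Sat1 (chrX:155213132-155216449, − strand), whose enzyme acetylates spermidine and spermine for export or oxidation, had 8.23 FPKM in Scr_300, 7.29 in Scr_600, 7.33 in Nfat5-KO_300 and 7.53 in Nfat5-KO_600. Its log2 ratios ran from -0.17 to 0.04. Smox (chr2:131491496-131525922, + strand) had 19.7, 15.1, 19.5 and 17.9 FPKM in the same order, and was lowest in Scr_600, with a log2 ratio of -0.39 against Scr_300. Paox (chr7:140115799-140137224, + strand) had 2.88, 2.40, 2.71 and 1.93 FPKM and was lowest in Nfat5-KO_600, at -0.47 against Nfat5-KO_300. Paox exons share 142 bases with Echs1 on the opposite strand, which had 6.84, 5.69, 5.60 and 3.96 FPKM and was likewise lowest in Nfat5-KO_600. The part of Echs1 reads in the Paox values was not tested.

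**Figure D2:**
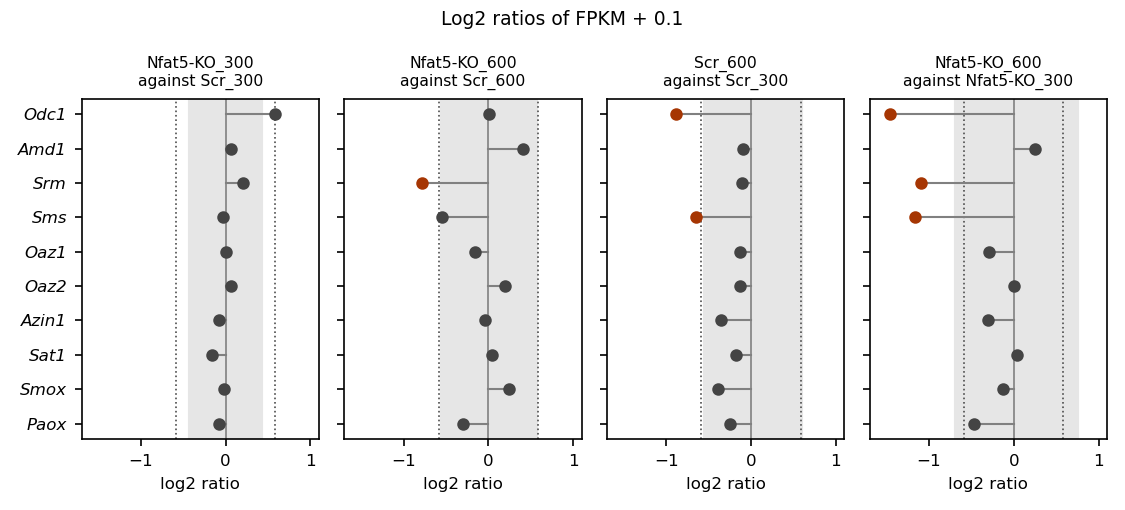
Log2 ratios of FPKM + 0.1 of the 10 genes in the 4 comparisons. The grey band spans the 10th to the 90th percentile of all genes compared, dotted lines mark 1.5-fold, and genes past 1.5-fold are in brown, which are Odc1 and Sms in Scr, Odc1, Srm and Sms in Nfat5-KO, and Srm between genotypes at 600 mosmol/kg.

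Counted over the 10 genes, the knockout at 300 mosmol/kg had 0 at least 1.5-fold higher, against 5.27% of the 12704 genes compared, and 0 lower, against 6.21%. At 600 mosmol/kg 0 were higher, against 9.84% of 13063 genes, and 1 was lower (Srm), against 9.44%. In Scr, 600 mosmol/kg gave 0 higher, against 10.4% of 12929 genes, and 2 lower (Odc1 and Sms), against 9.01%. In Nfat5-KO it gave 0 higher, against 14.1% of 12982 genes, and 3 lower (Odc1, Srm and Sms), against 13.8%. With 10 genes, all of these counts as deposited lie near what the shares of all genes give, and none is read as a result about the set. The 2 in Scr became 1 with a pseudocount of 1 (beside 5.11% of all genes) or equal FPKM sums (6.14%). At 2-fold they became 0 (2.86%). The 3 in Nfat5-KO stayed 3 with equal FPKM sums (6.89%) and at 2-fold (4.11%). There they lay further above the share of all genes, which was not tested.

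The median log2 ratio of the 10 genes was -0.01 at 300 and -0.01 at 600 mosmol/kg between genotypes, beside -0.00 and -0.02 over all genes. For osmolality it was -0.21 in Scr and -0.30 in Nfat5-KO, beside -0.04 in both over all genes. In Scr all 10 ratios were below 0, from -0.89 to -0.10, except that 3 of them (Oaz1, Srm and Amd1) lay slightly above 0 when the groups were scaled to equal FPKM sums. In Nfat5-KO 7 were below 0 and 3 above (6 and 4 after that scaling). The share of all genes below 0 was not calculated, so these tallies are not read as a result about the set. For Amd1 in Scr, 43.9% of the genes compared had a lower ratio. The scaling also changed the split of all genes past 1.5-fold, since 53.6% of them were higher in Scr_600 as deposited and 69.2% after it, 50.6% and 77.7% in Nfat5-KO_600 against Nfat5-KO_300, and 51.0% and 67.0% between genotypes at 600 mosmol/kg. In a bulk sample, fewer cells of a type and less RNA per cell cannot be told apart.

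**Figure D3:**
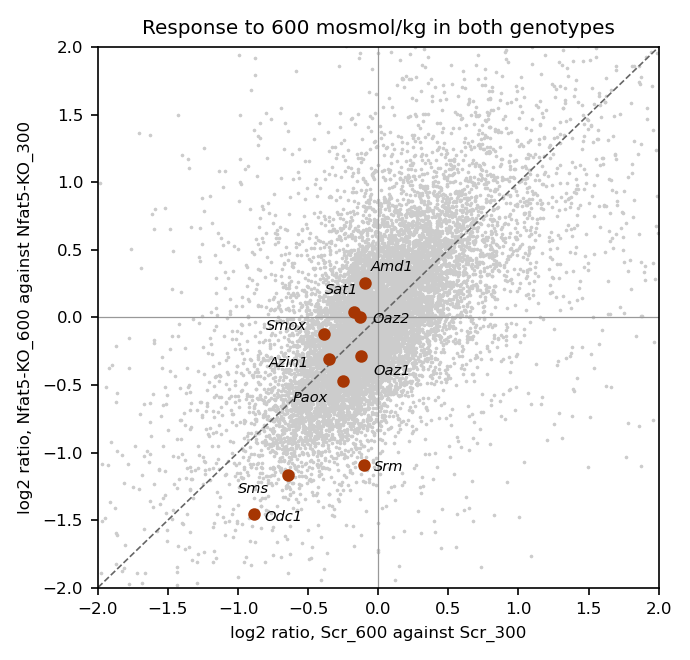
Log2 ratio at 600 against 300 mosmol/kg in Scr (horizontal) and in Nfat5-KO (vertical), with the 10 polyamine genes in brown, genes reaching 0.5 FPKM in any group in grey and the line of equal response dashed. Odc1, Sms and Srm lie below the line and Amd1 above it, and Srm is the farthest of the 10 from it. Genes beyond a log2 ratio of 2 either way are outside the axes.

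Response differences between genotypes, as the log2 ratio of osmolality in Nfat5-KO minus that in Scr, were -0.99 for Srm, -0.57 for Odc1 and -0.52 for Sms. They were 0.35 for Amd1, 0.26 for Smox and 0.21 for Sat1, and between -0.22 and 0.14 for the other four. The median over all genes was -0.01. Of all genes, 3.25% had a lower difference than Srm, 9.14% than Odc1 and 10.7% than Sms. A higher difference was found in 18.9% for Amd1, 24.0% for Smox and 27.9% for Sat1. With the groups scaled to equal FPKM sums, all 10 differences moved by more than 0.1. Srm was then at -0.88, Odc1 at -0.46, Sms at -0.41 and Amd1 at 0.46. For Odc1 the difference came with the knockout value at 300 mosmol/kg, and for Srm and Sms with the one at 600.

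Several members have near-identical copies elsewhere in the genome, between which reads can be split. A search of all annotated transcripts for at least 90% identity over at least 200 coding bases found 14 copies of Odc1, 8 of Amd1, 6 of Sms, 2 each of Oaz2 and Sat1, 1 each of Oaz1, Srm and Paox, and 0 of Azin1 and Smox. Sms was the member most affected. Its processed pseudogene Sms-ps (chrX:62775585-62776685, − strand) is 100% identical to the coding sequence over 1101 bases, and had 15.5 FPKM in Scr_300, 10.9 in Scr_600, 16.8 in Nfat5-KO_300 and 8.27 in Nfat5-KO_600. Those values exceeded the ones of Sms itself in every group and followed the same order of osmolality, with log2 ratios of -0.50 in Scr and -1.02 in Nfat5-KO. The level of Sms is therefore uncertain.

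Amd2, a protein-coding copy of Amd1 (99.9% identical over 1005 coding bases), had 5.68 FPKM in Scr_300, 5.26 in Scr_600, 6.33 in Nfat5-KO_300 and 7.15 in Nfat5-KO_600, and like Amd1 was highest in Nfat5-KO_600. The Odc1 pseudogene Gm9115 (96.7% identical) had 3.54, 2.06, 4.92 and 1.61 FPKM, and like Odc1 was highest in Nfat5-KO_300. Oaz1-ps (99.7%) had 4.47 to 5.67 FPKM and Gm19680, the Paox copy (99.9%), 0.895 to 1.31. The next shares leave out copies without a value and AW146154, which matches Odc1 in the opposite orientation, so that 12 of the 14 Odc1 copies entered, 7 of 8 of Amd1, and 1 of 2 each of Oaz2 and Sat1. Weighted by exon length, Sms held 73.8% of the signal of itself and these copies, Paox 87.5%, Amd1 88.5%, and the other 5 members with copies at least 98.1%. When each member was combined with these copies, none of the 32 log2 ratios moved by more than 0.0365 from the reported one. The combined ratios carry no pseudocount and the reported ones do, so this bound can understate or overstate the change for low genes. For Sms at 600 against 300 mosmol/kg in Nfat5-KO the combined ratio was -1.13. It was -1.16 as reported and -1.18 with a pseudocount of 0.01. For Paox in the same comparison the ratio was -0.495 combined, -0.471 as reported and -0.489 with a pseudocount of 0.01.

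**Figure D4:**
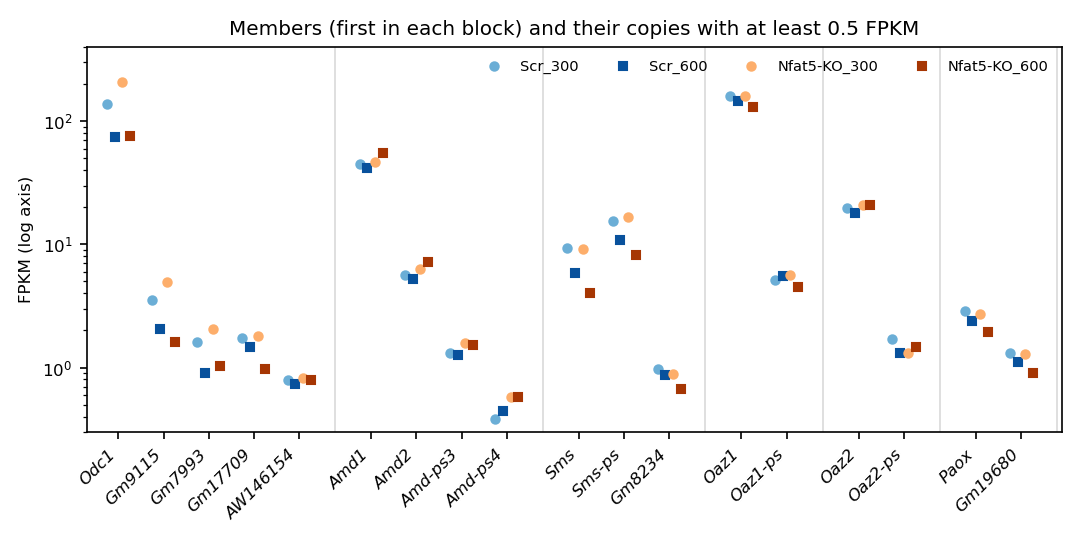
FPKM on a log axis of members and of their copies with at least 0.5 FPKM in a group, 1 pooled value per point. Sms-ps lies above Sms in all 4 groups and keeps its order by osmolality, and Amd2 is 7.36- to 7.96-fold below Amd1 with the same group highest.

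Other genes of the pathway were described from a list of 31, of which 20 had at least 0.5 FPKM in the groups compared. In the knockout at 300 mosmol/kg 0 were at least 1.5-fold higher, beside 5.27% of all genes, and 1 lower (Arg2), beside 6.21%. At 600 mosmol/kg 0 were higher, beside 9.84%, and 1 lower (Apip), beside 9.44%. At 600 against 300 in Scr, 0 were higher, beside 10.4%, and 2 lower (Eif5a2 and Slc18b1), beside 9.01%. In Nfat5-KO 2 were higher and 6 lower, beside 14.1% and 13.8% of all genes. With the groups scaled to equal FPKM sums, the 6 lower in Nfat5-KO became 2 (Eif5a2 and Enoph1), beside 6.89% of all genes. The 2 in Scr became 1 (Eif5a2), beside 6.14%. Between genotypes at 600 mosmol/kg Apip fell short of 1.5-fold (-0.49) and Atp13a2 was higher past it (0.62), beside 13.9%. The transport gene Slc7a1 was higher past it in Scr (0.69, and 0.60 with median-of-ratios scaling), beside 13.8% with equal sums. As deposited, the median log2 ratios of the 20 genes in the comparisons above were -0.05, -0.08, -0.12 and -0.20.

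The hypusine pathway uses spermidine to modify the translation factor eIF5A, and its genes were among those lower. Eif5a, the factor's main gene, had 324.2 FPKM in Scr_300, 251.2 in Scr_600, 346.0 in Nfat5-KO_300 and 202.3 in Nfat5-KO_600. Dhps, which starts the modification, had 16.1, 12.0, 15.3 and 8.89 FPKM, and Eif5a2, the paralog of Eif5a, 5.56, 2.92, 5.14 and 2.50. In each of these genes both groups at 600 mosmol/kg were below both at 300 and Nfat5-KO_600 was lowest. The log2 ratios in Nfat5-KO were -0.77, -0.77 and -1.01, so that 3 of 4 hypusine genes were past 1.5-fold there, beside 13.8% of all genes. With equal FPKM sums Eif5a and Dhps were each at -0.53 and only Eif5a2 was past it, beside 6.89% of all genes. Dohh, which completes the modification, was at -0.35 in Nfat5-KO and at 0.04 in Scr. In Scr 1 of 4 was past 1.5-fold, Eif5a2 at -0.91, beside 9.01% of all genes.

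Arg2, the mitochondrial arginase that makes ornithine, had 2.23 FPKM in Scr_300, 2.70 in Scr_600, 0.807 in Nfat5-KO_300 and 3.01 in Nfat5-KO_600. Only Nfat5-KO_300 was low, with a log2 ratio of -1.36 against Scr_300 and of 1.78 for Nfat5-KO_600 against it, in the group where Odc1 was highest. Among genes of methionine salvage, which recycles the by-product of spermidine and spermine synthesis, Enoph1 had 20.8, 18.8, 27.1 and 13.6 FPKM and Apip 15.0, 11.4, 11.6 and 7.38. Both were lowest in Nfat5-KO_600, at log2 ratios of -0.99 and -0.65 against Nfat5-KO_300. Of the transporters, Atp13a2, which exports polyamines from lysosomes, had 4.50, 5.76, 4.52 and 8.13 FPKM and was highest in Nfat5-KO_600. Slc18b1, a vesicular polyamine transporter, had 4.04, 2.51, 3.89 and 2.25 FPKM and was lower at 600 mosmol/kg in both genotypes. The 11 genes below 0.5 FPKM included Aoc1, the diamine oxidase, and the antizyme Oaz3.

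**Figure D5:**
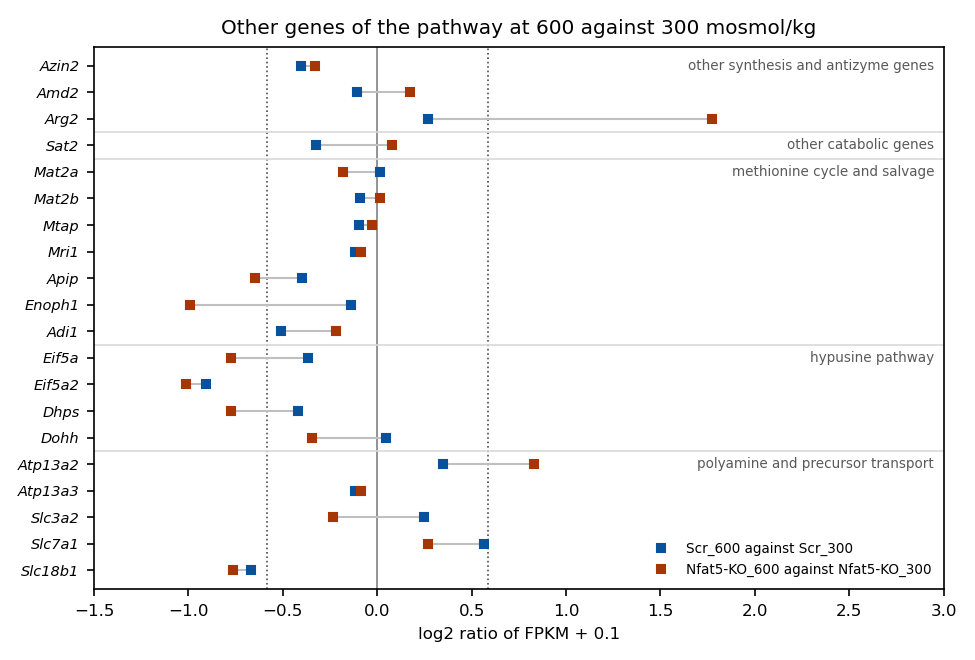
Log2 ratios of FPKM + 0.1 at 600 against 300 mosmol/kg of the 20 other pathway genes, in Scr (blue) and Nfat5-KO (brown), with dotted lines at 1.5-fold. Arg2 at 1.78 and Atp13a2 at 0.83 in Nfat5-KO lie above 1.5-fold, and Eif5a, Eif5a2, Dhps, Enoph1, Apip and Slc18b1 below it, of which Eif5a, Dhps, Apip and Slc18b1 do not reach it with equal FPKM sums.

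By Euclidean distance of centred log2 values over the 4 groups, among the 7860 genes that reached 5 FPKM in any group, the genes nearest to Odc1 were Tgm1 (distance 0.0590), Rbm3-ps (0.0632), Tubb6 (0.130), Krt80 (0.144) and Klf4 (0.152). Tgm1, a transglutaminase of epithelial barriers, had 40.5 FPKM in Scr_300, 21.7 in Scr_600, 62.3 in Nfat5-KO_300 and 21.4 in Nfat5-KO_600. Among the members Sms ranked 281 and Srm 1009 in nearness to Odc1, and Amd1 5006. Nearest to the almost flat pattern of Sat1 were Uqcc3 (0.00791), Gm37516 (0.0257), Gm12183 (0.0273), Nr2c1 (0.0293) and Abhd17b (0.0310). With 4 points, such likeness is a description only.

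As checks of the labels, Nfat5 itself had 5.61 FPKM in Scr_300, 7.93 in Scr_600, 3.47 in Nfat5-KO_300 and 6.88 in Nfat5-KO_600, so its transcript was still present in the knockout. Of 10 principal cell markers 4 reached 0.5 FPKM (Aqp3, Scnn1a, Hsd11b2 and Gata3), and all 10 summed to 9.84, 8.68, 20.5 and 46.4 FPKM in the same order. Gata3 made up most of that difference, at 3.41, 4.33, 11.8 and 30.04 FPKM. Scnn1a and Hsd11b2 were also highest in Nfat5-KO_600, at 7.03 and 6.18 FPKM, against 1.31 and 0.655 in Scr_600. Aqp3 was not highest there and lay between 2.07 and 2.93. Aqp2, the defining water channel, was at or near 0 in every group (0 to 0.245 FPKM). All 4 epithelial markers were present, summing to 1492, 1131, 1370 and 952 FPKM in the same order. Of 11 markers of other cell types only Lrp2 reached 0.5 FPKM, at 1.07 in Nfat5-KO_600, Foxi1 was at 0 throughout, and the list summed to 0.151, 0.247, 0.353 and 1.90 FPKM. Both the principal cell and the other-cell sums were highest in Nfat5-KO_600, and the epithelial sum was lowest there. Srm and Sms were lowest in the same group, and the part of cell state or type in those values was not tested. The genes within 10 Mb of each member had median log2 ratios between genotypes from -0.24 to 0.02, and those around Srm were at -0.10 at 600 mosmol/kg (190 genes) where Srm was at -0.78.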

How the data were processed

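RNA was sequenced from 12 libraries of mpkCCD cells. The authors filtered out adapter, poly-N and low-quality reads, aligned the pairs to mm10 with HISAT2 and counted genes with HTSeq (versions and annotation release not given in the sources used here). The deposited FPKM values hold 1 value per gene and group. How libraries were combined, and the depth of each, is not given in the sources used here. Among genes below 0.05 FPKM in both groups, the commonest ratio was 0.582 for Nfat5-KO_300 over Scr_300 and 1.03 for Scr_300 over Scr_600, and several step sizes mixed, so no depth was recovered and no interval was calculated.

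Of 54839 entries, 2436 without a value, 311 exact duplicates and 37 symbols with differing entries were set aside, which left 52015 genes. Log2 ratios of FPKM + 0.1, which understate changes of low genes, were taken between groups. Genes with at least 0.5 FPKM in either group were compared, and called at 1.5-fold. The planned limma test needs values per library and was not run, so no p was calculated. The steps for ratios and calls were tested on Scr_300 values with known fold changes put in and no noise. That checks the arithmetic and not how reliable a call on pooled values is.

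The members and all lists and motifs were chosen with earlier results of these data known. Genes named were the members, other pathway genes with at least 1 FPKM and 1.5-fold changed in a comparison, the 5 nearest to Odc1 and to Sat1, Nfat5, Aqp2, and copies and overlapping genes. Lrp2, Foxi1, Dohh, Slc7a1, Aoc1 and Oaz3 fall outside this rule and were chosen after their values were seen, as were Aqp3, Scnn1a, Hsd11b2 and Gata3. Positions come from GENCODE M21 (GRCm38) and copies from BLAST 2.17.0. Alternatives were a minimum mean of 1 FPKM, no filter, other pseudocounts (1 and 0.01), median-of-ratios scaling, equal FPKM sums, and 2-fold. Python 3.11.15 was used with pandas 2.3.3, numpy 2.4.6 and matplotlib 3.10.9.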

Additional observations from a re-analysis of the deposited data

Results flagged for a closer look

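Of the 10 polyamine genes, 6 had log2 ratios of opposite sign in the settings compared, in the values as deposited. The share of all genes with opposite signs was not calculated, so the tally is not read as a result about the set. The Oaz1 ratio at 300 mosmol/kg (0.000584) and the Oaz2 ratio in Nfat5-KO (0.00398) were almost 0, so their signs carry little. The knockout ratio at 600 mosmol/kg minus that at 300 was -0.99 for Srm (0.21 at 300 and -0.78 at 600), 0.26 for Smox (-0.02 and 0.24), 0.21 for Sat1 (-0.16 and 0.04) and -0.16 for Oaz1 (0.00 and -0.16). The osmolality ratio in Nfat5-KO minus that in Scr was 0.35 for Amd1 (-0.10 in Scr and 0.25 in Nfat5-KO), 0.21 for Sat1 (-0.17 and 0.04) and 0.14 for Oaz2 (-0.13 and 0.00). With 1 pooled value per group, none of these differences was tested, and the tally depended on scaling. With equal FPKM sums, Amd1 had the same sign in both genotypes, the knockout ratios of Azin1 at 300 and 600 mosmol/kg had opposite signs, and so had the osmolality ratios of Oaz1, Srm and Smox in Scr and Nfat5-KO. With median-of-ratios scaling the knockout ratios of Oaz1 had the same sign. For each gene but Srm both ratios as deposited were under 1.5-fold.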

How the results depend on the processing

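No paired analysis was possible because the table holds 1 value per group, and for the same reason no library could be left out. Of 272 member ratios recomputed, 240 stayed within 0.1 of the reported log2 value. These include 40 with no filter and 40 with a mean of at least 1 FPKM, settings that change only the genes kept and cannot move a member ratio. Under equal FPKM sums only 10 stayed. The 32 others moved without a called ratio changing sign, 30 of them under scaling to equal FPKM sums, which shifted the median of all genes by 0.01, 0.13, 0.13 and 0.24 in the order of the report, and 2 under a pseudocount of 1. That scaling gave 1 member at least 1.5-fold higher in Nfat5-KO_300 (Odc1), beside 5.49% of all genes. It gave 1 lower in Scr_600 against Scr_300 in place of 2, beside 6.14%. It left 3 lower in Nfat5-KO_600 against Nfat5-KO_300, beside 6.89%. Member medians under it were 0.11 between genotypes at 600 mosmol/kg, -0.085 for osmolality in Scr and -0.055 in Nfat5-KO. All 10 response differences between genotypes moved by more than 0.1 under equal FPKM sums. A pseudocount of 1 also left 1 lower in Scr_600, beside 5.11%. At 2-fold, 0 members were lower between genotypes at 600 mosmol/kg, beside 3.68%, and 0 in Scr_600, beside 2.86%. Odc1, Srm and Sms were lower at 2-fold in Nfat5-KO_600 against Nfat5-KO_300, beside 4.11% of all genes. Median-of-ratios scaling and a pseudocount of 0.01 changed no member count. No filter and a mean of at least 1 FPKM could not change one, since all members pass either way. The counts of all genes past 1.5-fold, 670 to 1836 as reported, were 300 to 1225 with a pseudocount of 1, 413 to 1493 with a mean of at least 1 FPKM, 1758 to 3641 with no filter, 698 to 3111 under equal sums and 220 to 812 at 2-fold. Reads shared with copies limit Sms most.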
